A study of Arabidopsis thaliana with 6 samples.

Results

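The genes of glucosinolate synthesis, regulation and transport were examined in whole Arabidopsis thaliana seedlings, with 49 listed genes out of 33617 in the deposited table. The members were taken from a fixed list of locus identifiers. They cover regulators, chain elongation, the core pathway, side-chain modification and transport. A member counted as measured when it had at least 60 fragments, the read pairs assigned to a gene, over the 6 libraries. By this rule 33 members were measured and 15 were not, and AOP2 was not analysed here.

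Messenger RNA was taken from untreated 7-day seedlings kept at 23 °C in long days on MS medium. The mutant group was cog1-2D, an activation-tagging line for COG1, a gene for a Dof-type transcription factor. In such lines an insertion is meant to increase the activity of a nearby gene. The control group was the Col-0 wild type, labelled as not mutant. Each group had 3 libraries, numbered 0, 1 and 2. The labels give neither the accession in which the mutant line was made nor the number of seedlings or independent cultures behind a library, so p-values measure the spread between these libraries, which may be technical. In bulk RNA, fewer cells of a type and less RNA per cell cannot be told apart.

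Glucosinolates are sulfur-rich defence compounds of the cabbage family that myrosinase enzymes break down to toxic products when tissue is damaged. Aliphatic glucosinolates are made from methionine, whose chain is first lengthened in the chloroplast, and indolic glucosinolates are made from tryptophan. Both kinds then pass through a core pathway of cytochrome P450 enzymes, glutathione conjugation, a carbon-sulfur lyase, glucosylation and sulfation, and their side chains are modified last. MYB28, MYB29 and MYB76 are known to activate the aliphatic branch, and MYB34, MYB51 and MYB122 the indolic branch.

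In cog1-2D, 13 of the 33 measured members fell, 3 rose and 17 did not pass the test. The largest falls were in FMOGS-OX2, MYB29, MAM1, CYP81F2, CYP81F1 and CYP79B2, each at least 2-fold, and the largest rise was in MAM3, also at least 2-fold. The test was edgeR's quasi-likelihood F-test with Benjamini-Hochberg adjustment over all 10347 genes that passed a low-count filter. Of those genes, 36.3% were called in either direction, 20.0% lower and 16.3% higher in cog1-2D. Falls of 2-fold or more made up 6 of the 33 members, against 5.76% of all tested genes, and rises of 2-fold or more made up 1, against 2.80%. In 12 members every mutant library lay below every wild type library and in 4 above, against 25.5% and 24.3% of all tested genes. The median log2 fold change was -0.30 over the measured members and 0.00 over all tested genes. The members were listed with earlier results of these data known, so these shares describe the list and do not test it.

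**Figure D1:**
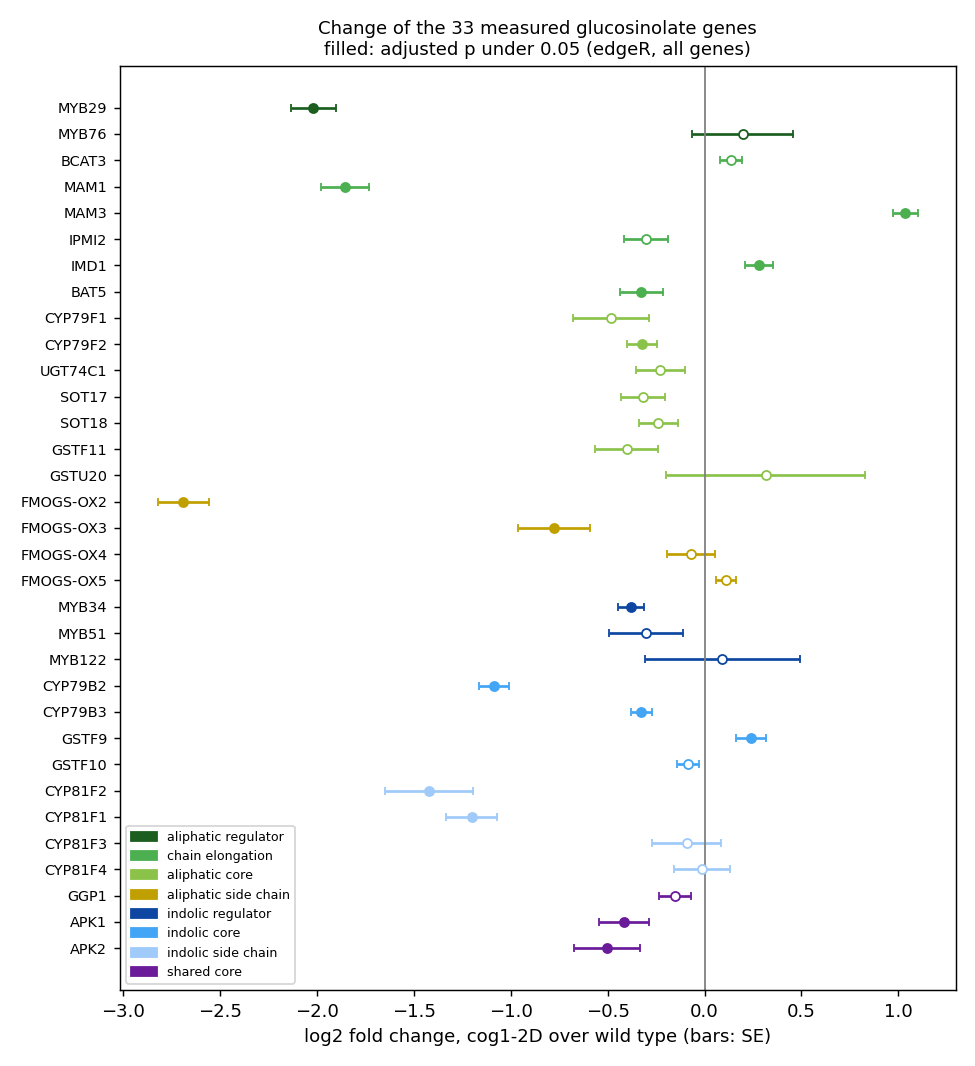
Mutant over wild type on the log2 scale (x axis) for each of the 33 measured members (y axis), coloured by role, with bars of 1 SE and filled points for an adjusted p under 0.05. FMOGS-OX2 lies farthest left at -2.69 and MAM3 farthest right at 1.04.

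Which members could be seen depended on the strand of the gene. Across nuclear protein-coding genes of the reference, those on the plus strand took 99.9% of the fragments and those on the minus strand 0.135%. Among the members, 14 of the 15 unmeasured genes lie on the minus strand, and 32 of the 33 measured ones lie on the plus strand. Unmeasured genes held from 2 to 57 fragments over all libraries. They were the regulator MYB28, the chain elongation genes BCAT4, IIL1 and IPMI1, the cytochrome P450 genes CYP83A1 and CYP83B1, and the later core genes SUR1, UGT74B1 and SOT16. The side-chain genes FMOGS-OX1, AOP3, IGMT1 and IGMT2 and both importer genes, GTR1 and GTR2, completed the set. AOP3, with 3 fragments, was the only plus-strand gene among them. Nothing can be said of the direction of these genes, and transport is not covered at all among the members.

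The values nearest the threshold were 57 fragments for IIL1, just under it, and 80 for MYB122 and 147 for GSTU20, just above it. GSTU20, a glutathione transferase gene of the aliphatic core, lies on the minus strand. It had 2.35, 0.380 and 3.30 CPM, counts scaled for library size and composition, in wild type replicates 0, 1 and 2. Its levels in cog1-2D were 2.15, 2.39 and 2.99 CPM. The low value in wild type replicate 1 stands beside a minus-strand share of 0.0301% in that library, against 0.139% to 0.169% in the others, so these counts do not give the level of GSTU20.

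**Figure D2:**
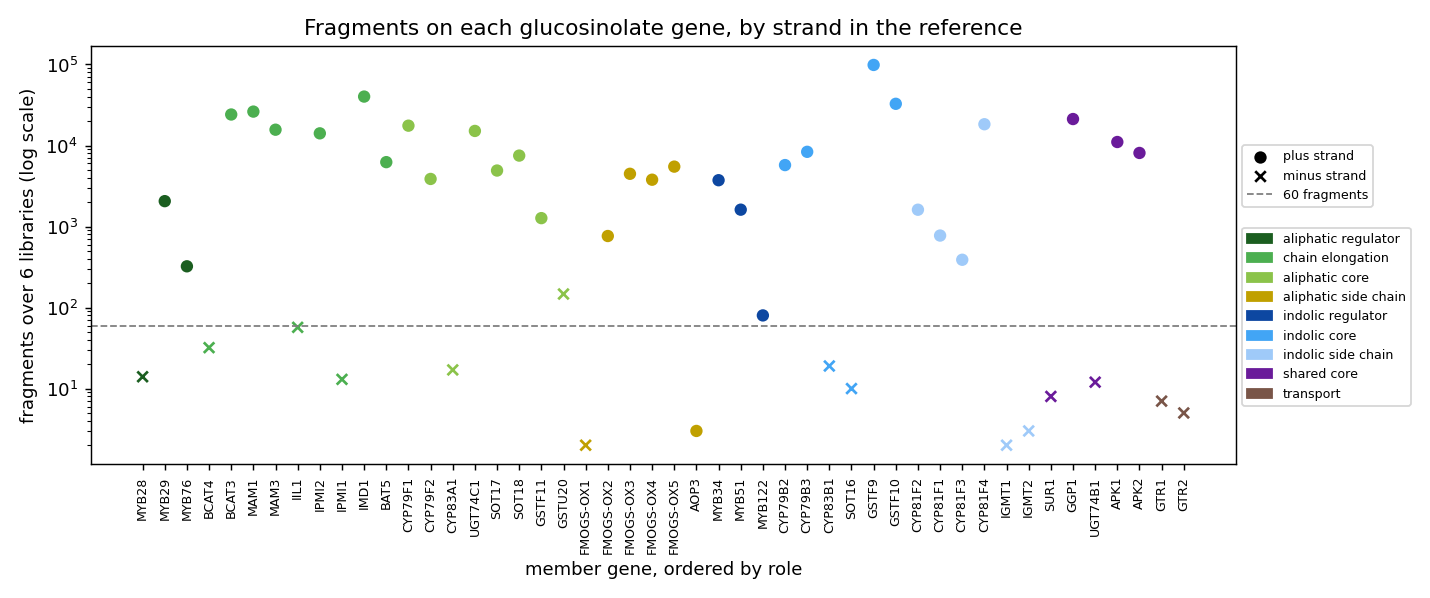
Fragments over the 6 libraries (y axis, log scale) for the 48 members in the table, ordered by role (x axis), with circles for plus-strand and crosses for minus-strand genes. The dashed line marks 60 fragments, and every cross but GSTU20 lies below it.

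The libraries held 10575945 to 11202122 fragments each. COG1 is also a minus-strand gene, and its 0, 3 and 3 fragments in the mutant and 0 in all wild type libraries are too few to check the genotype labels. Of 10 antenna and Rubisco genes that mark green shoot tissue, 7 are on the minus strand, both Rubisco genes among them, and were at 1.42 to 53.7 CPM. The 3 plus-strand antenna genes LHCB1.3, LHCB3 and LHCA3 summed to 37426 to 46160 CPM in wild type and 44143 to 45659 CPM in cog1-2D, and 0 of these 3 were called. Of 12 root markers, 5 are on the minus strand, among them COBL9, which was at 0. Of the 7 on the plus strand, 1 was higher and 4 lower in cog1-2D, against 16.3% and 20.0% of all tested genes. TIP4;1 was the higher one, and HKT1, PIN2, SCR and EXPA7 were lower. Their summed level over all 7 ran from 430.0 to 599.9 CPM in wild type and from 484 to 705 CPM in the mutant. IRT1, which was not called, was the largest part of that sum. It was at 219 to 386 CPM in wild type and 278 to 507 CPM in cog1-2D, so the sum mostly follows IRT1. Of 5 seed storage genes, 2 were at 0, and CRU3 stood at 33.4 CPM in cog1-2D replicate 2 and at no more than 0.869 CPM elsewhere. The myrosinase gene TGG2, a marker of myrosin cells, was at 729 to 876 CPM in wild type and 0.905 to 2.34 CPM in cog1-2D. TGG1, the other listed marker of these cells, is on the minus strand, so its level could not be read. It was at 0.950 to 4.61 CPM in wild type and 1.91 to 2.06 CPM in cog1-2D and did not pass the test. The part of these markers in the results below was not tested.

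Some of the genes below are shown with sequence because neighbouring, similar copies moved differently. MAM1 and MAM3 are tandem neighbours on chromosome 5, 11144 bases apart, and their coding sequences are 83.8% identical. Their longest exactly shared coding stretch is 30 bases. The window below shows that stretch and the bases on either side of it. It covers coding bases 639 to 718 of MAM1 and 555 to 634 of MAM3, from the reference genome TAIR10.1 on the plus strand. Capitals mark the 6 bases at which the copies differ.
MAM1: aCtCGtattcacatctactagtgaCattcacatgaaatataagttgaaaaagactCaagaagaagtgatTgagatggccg
MAM3: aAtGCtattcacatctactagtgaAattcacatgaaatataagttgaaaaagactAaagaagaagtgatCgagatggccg

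The 250 bases upstream of the annotated start are shown for the 3 members with the largest falls. These windows lie on the plus strand of TAIR10.1 at chr1:23151384-23151633 for FMOGS-OX2, chr5:2446419-2446668 for MYB29 and chr5:7702791-7703040 for MAM1. Capitals mark GAGAC on either strand, the core of an element known from sulfur-responsive promoters.
FMOGS-OX2: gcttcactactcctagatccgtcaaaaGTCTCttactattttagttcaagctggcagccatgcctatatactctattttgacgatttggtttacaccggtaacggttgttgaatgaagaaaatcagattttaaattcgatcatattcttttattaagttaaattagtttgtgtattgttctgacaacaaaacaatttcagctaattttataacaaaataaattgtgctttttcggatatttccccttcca
MYB29: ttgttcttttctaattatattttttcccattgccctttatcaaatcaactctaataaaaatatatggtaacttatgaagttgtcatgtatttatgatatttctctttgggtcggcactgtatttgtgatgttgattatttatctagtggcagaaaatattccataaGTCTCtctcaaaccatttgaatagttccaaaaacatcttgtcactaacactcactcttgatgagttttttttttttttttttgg
MAM1: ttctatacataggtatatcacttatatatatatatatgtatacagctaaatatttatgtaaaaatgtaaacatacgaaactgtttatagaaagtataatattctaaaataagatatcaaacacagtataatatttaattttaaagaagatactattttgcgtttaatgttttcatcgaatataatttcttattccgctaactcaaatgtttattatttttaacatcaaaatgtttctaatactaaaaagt

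The window of MAM1 is 19.6% G and C and does not hold GAGAC. Upstream windows of the 32 measured plus-strand members were searched on both strands for 6 short motifs. GAGAC was in 9 of the 32, 5 of them among the 13 genes that fell, against 25.8% of 27443 protein-coding genes. The G-box CACGTG, a sequence bound by MYC-type factors, was in 0 of the 32, against 6.49% of all windows. AAAG, the core bound by Dof factors such as COG1, was in 32 of 32 and in 98.0% of all windows, with a median of 4 copies in both sets. The R2R3-MYB elements ACCTACC and ACCAACC were in 2 windows each, against 1.16% and 2.69% of all windows, and ACCTAAC was in 0, against 2.46%. The ACCTACC windows belong to IPMI2 and CYP79F2, and the ACCAACC windows to BAT5 and SOT17. A match describes the letters only, and the absence of a match says only that these letters are not in the window.

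Among the regulators, MYB29 fell about 4-fold and MYB34 fell slightly, while MYB51, MYB76 and MYB122 did not pass the test. MYB29 (AT5G07690) had 52.5, 45.3 and 54.0 CPM in the wild type libraries and 14.0, 13.1 and 10.4 CPM in cog1-2D. Every mutant library lay far below every wild type library. The log2 fold change was -2.02 ± 0.12 (SE, n = 3 per genotype, edgeR adjusted p = 2.40e-06), a 4.05-fold difference. MYB76 (AT5G07700), the tandem neighbour of MYB29 with the same reported role, was read at a low level of 5.99, 4.56 and 3.30 CPM in wild type and 6.93, 4.58 and 4.43 CPM in cog1-2D. These groups overlapped, and its log2 fold change was 0.20 ± 0.26. The coding sequences of the pair are 77.5% identical. Per length, MYB29 was at 32.5 ± 2.8 FPKM in wild type and 8.06 ± 1.2 in cog1-2D (SD, n = 3), where FPKM is the deposited level scaled for gene length and library. MYB76 was at 3.95 ± 1.1 and 4.59 ± 1.0 FPKM. MYB29 thus made up 89.2 ± 2.9% of the summed FPKM of the pair in wild type and 63.8 ± 3.6% in cog1-2D, without overlap between genotypes.

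On the indolic side, MYB34 (AT5G60890) had 68.8, 64.1 and 61.8 CPM in wild type and 47.3, 49.7 and 52.6 CPM in cog1-2D. The groups did not overlap, and it fell by 0.38 ± 0.07 on the log2 scale (edgeR adjusted p = 0.00226). MYB51 (AT1G18570) spread from 21.9 to 31.5 CPM in wild type and from 16.1 to 27.4 CPM in the mutant, with overlap. It did not pass (log2 fold change -0.30 ± 0.19, edgeR adjusted p = 0.251), with values from -0.48 without cog1-2D replicate 0 to -0.11 without cog1-2D replicate 2. MYB122 (AT1G74080) stayed at 0.724 to 1.97 CPM in all 6 libraries. By FPKM the order was the same in each genotype, with MYB34 at 40.4 ± 2.0 and 31.2 ± 1.7, MYB51 at 17.0 ± 3.0 and 13.9 ± 3.6, and MYB122 at 0.867 ± 0.17 and 0.927 ± 0.46, the wild type value first.

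Chain elongation held both the clearest rise and one of the largest falls. Of 6 measured genes, MAM1 and BAT5 fell, MAM3 and IMD1 rose, and BCAT3 and IPMI2 did not pass. MAM1 and MAM3 encode methylthioalkylmalate synthases, which add carbon units to the methionine-derived chain and are known for natural variation among Arabidopsis accessions in the chain lengths they produce. MAM1 (AT5G23010) was at 592, 573 and 731 CPM in wild type and 187, 191 and 146 CPM in cog1-2D. MAM3 (AT5G23020) was at 167, 146 and 163 CPM in wild type and 314, 325 and 337 CPM in cog1-2D. Neither gene's groups overlapped, and the neighbours went opposite ways. MAM1 had a log2 fold change of -1.86 ± 0.12 (edgeR adjusted p = 5.99e-06) and MAM3 one of 1.04 ± 0.06 (adjusted p = 3.76e-06).

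The order of the pair was turned round between the genotypes. On the FPKM scale MAM1 was above MAM3 in wild type, at 405 ± 55 against 95.6 ± 6.1, and below it in cog1-2D, at 113 ± 16 against 197 ± 7.2 (SD, n = 3). MAM1 made up 79.0%, 80.7% and 82.7% of the summed FPKM of the pair in the wild type libraries and 38.7%, 38.5% and 31.6% in cog1-2D. The sum itself was 501 ± 57 FPKM in wild type and 309.7 ± 10 FPKM in cog1-2D. How the counting treated reads that match both copies is not given in the sources used here. The copies share no exact coding stretch longer than the 30 bases shown above.

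The remaining elongation genes moved by less. IMD1 (AT5G14200), an isopropylmalate dehydrogenase gene, had 556, 519 and 605 CPM in wild type and 705, 700 and 636 CPM in cog1-2D. The groups did not overlap, and it rose by 0.28 ± 0.07 on the log2 scale (edgeR adjusted p = 0.0130), a call lost without cog1-2D replicate 1 (adjusted p = 0.0604). BAT5 (AT4G12030), which encodes the carrier of the 2-oxo acids across the chloroplast envelope, had 113, 99.4 and 108 CPM in wild type and 96.6, 89.8 and 69.4 CPM in the mutant. Its fall of 0.33 ± 0.11 lay at the threshold (adjusted p = 0.0483). That call was lost without any library except cog1-2D replicate 0 or wild type replicate 1 (edgeR adjusted p = 0.0850 to 0.111), and without cog1-2D replicate 2 its log2 fold change was -0.19.

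IPMI2 (AT2G43100), a small subunit of isopropylmalate isomerase, ran from 200 to 264 CPM in wild type and from 176 to 216 CPM in cog1-2D. It did not pass (log2 fold change -0.30 ± 0.11, edgeR adjusted p = 0.0633). It passed without wild type replicate 1 (adjusted p = 0.00607) or cog1-2D replicate 0 (adjusted p = 0.0433). It came to -0.22 without wild type replicate 2 and -0.23 without cog1-2D replicate 2, and did not pass in either fit. BCAT3 (AT3G49680), a plastid aminotransferase that also serves amino acid synthesis, was at 343 to 370 CPM and 368 to 401 CPM, with a log2 fold change of 0.14 ± 0.06 that did not pass.

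**Figure D3:**
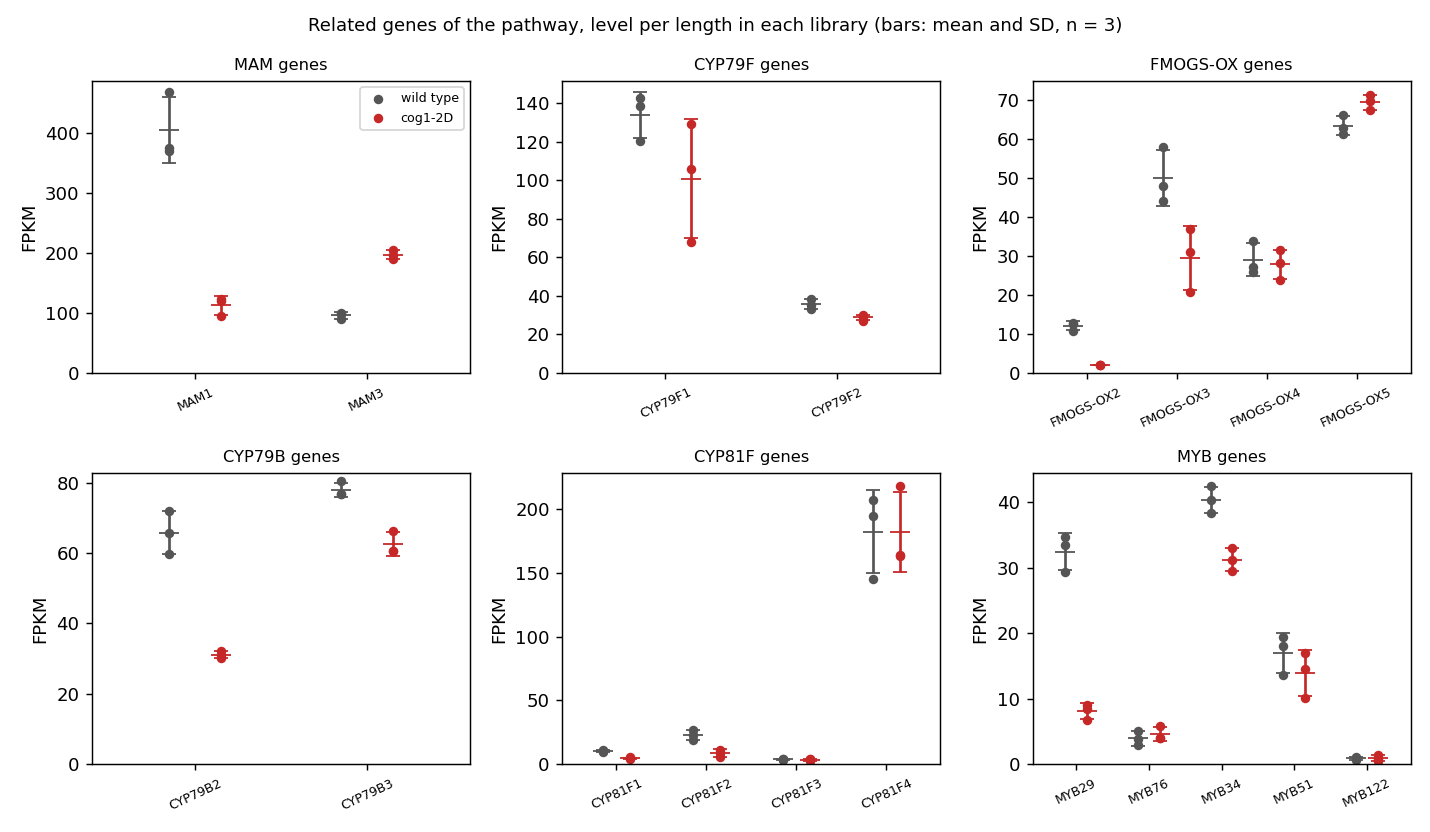
FPKM (y axis) of related genes (x axis) in each wild type library (grey) and each cog1-2D library (red), with bars for the mean and SD of 3 libraries. MAM1 and MAM3 change places between the genotypes, and FMOGS-OX2, CYP79B2 and MYB29 are lower in every mutant library.

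In the aliphatic core, 7 genes were measured and only CYP79F2 passed, with a small fall. The median log2 fold change of these genes was -0.32, and all but GSTU20 had a negative value. CYP79F1 and CYP79F2 encode the cytochrome P450 enzymes that open the core pathway for methionine derivatives. CYP79F1 (AT1G16410) had 340, 277 and 329 CPM in wild type and 294, 232 and 152 CPM in cog1-2D. The mutant libraries spread almost 2-fold, with replicate 2 lowest and replicate 0 inside the wild type range, and the gene did not pass (log2 fold change -0.48 ± 0.20, edgeR adjusted p = 0.0858). Without cog1-2D replicate 0 it passed, at -0.72 ± 0.17 (adjusted p = 0.0150), and without replicate 2 it came to -0.26 ± 0.12 (adjusted p = 0.141). CYP79F2 (AT1G16400) had 71.9, 61.1 and 65.2 CPM against 55.3, 49.8 and 53.5 CPM, without overlap, and fell by 0.32 ± 0.08 (adjusted p = 0.00926). The pair are neighbours 1183 bases apart with 91.9% identical coding sequences and an exactly shared stretch of 100 bases, so the split of reads between them is uncertain.

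The later aliphatic core genes had similar, small differences that did not pass. UGT74C1 (AT2G31790), a glucosyltransferase gene, ran from 229 to 283 CPM in wild type and from 178 to 255 CPM in cog1-2D. Its log2 fold change of -0.23 ± 0.13 did not pass (edgeR adjusted p = 0.188). It passed without cog1-2D replicate 0 (-0.37, adjusted p = 0.0338) and came to -0.11 without cog1-2D replicate 2 and -0.14 without wild type replicate 0. SOT17 (AT1G18590) and SOT18 (AT1G74090) encode sulfotransferases of the last core step. SOT17 was at 70.7 to 94.5 CPM in wild type and 59.4 to 71.6 CPM in cog1-2D, and its log2 fold change of -0.32 ± 0.11 was just short of the threshold (edgeR adjusted p = 0.0525). Without wild type replicate 1 it passed (-0.42 ± 0.09, adjusted p = 0.00904). It came to -0.22 without wild type replicate 0 and -0.23 without cog1-2D replicate 2, and did not pass in either fit. SOT18 (-0.24 ± 0.10) and GSTF11 (-0.40 ± 0.16), a glutathione transferase gene, did not pass with all libraries and did so without wild type replicate 1 (adjusted p = 0.0486 and 0.0181). SOT18 came to -0.14 without cog1-2D replicate 2, and GSTF11 to -0.23 without wild type replicate 0. All 1096 bases of GSTF11 are overlapped by AT3G03200, a protein-coding gene on the opposite strand that was at 0 fragments. Whether reads of that gene were counted for GSTF11 was not tested.

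In the indolic core, CYP79B2 and CYP79B3 fell, GSTF9 rose and GSTF10 did not pass, while CYP83B1 and SOT16 were unmeasured. CYP79B2 and CYP79B3 encode the enzymes that turn tryptophan into indole-3-acetaldoxime, which also feeds camalexin and auxin. CYP79B2 (AT4G39950) had 132, 118 and 109 CPM in wild type and 56.2, 54.5 and 58.3 CPM in cog1-2D. The mutant libraries were close together and all below the wild type ones, a log2 fold change of -1.09 ± 0.08 (edgeR adjusted p = 8.68e-06). CYP79B3 (AT2G22330) had 142, 146 and 141 CPM against 111, 122 and 111 CPM, again without overlap, and fell by 0.33 ± 0.05 (adjusted p = 0.00165). Their coding sequences are 80.5% identical, and the genes lie on chromosomes 4 and 2. The summed FPKM of the pair was 144 ± 6.4 in wild type and 93.6 ± 2.6 in cog1-2D, of which CYP79B2 made up 45.7 ± 2.4% and 33.3 ± 1.8% (SD, n = 3).

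The glutathione transferase genes GSTF9 and GSTF10 had the highest mean FPKM among the members in both genotypes, followed by IMD1 in cog1-2D at 498 ± 26 FPKM, which overlapped GSTF10. GSTF9 (AT2G30860) was at 1371 ± 140 FPKM in wild type and 1646 ± 100 FPKM in cog1-2D, and GSTF10 (AT2G30870) at 548 ± 22 and 521 ± 25 FPKM. GSTF9 had 1414, 1249 and 1527 CPM against 1707, 1669 and 1571 CPM. Its groups did not overlap, and it rose by 0.24 ± 0.08 (edgeR adjusted p = 0.0402). That call was lost without wild type replicate 1 or without any cog1-2D library (adjusted p = 0.0535 to 0.123). GSTF10 did not pass (log2 fold change -0.08 ± 0.06). The genes are neighbours with 77.6% identical coding sequences.

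Of the core genes that serve both branches, 3 were measured. APK1 and APK2 encode kinases that make the sulfate donor for the sulfotransferases. APK1 (AT2G14750) had 221, 176 and 185 CPM in wild type and 174, 140 and 123 CPM in cog1-2D, and fell by 0.41 ± 0.13 (edgeR adjusted p = 0.0327). Its highest mutant library lay just under its lowest wild type library. APK2 (AT4G39940) had 176, 128 and 133 CPM against 130, 96.9 and 81.8 CPM, with overlap, and fell by 0.50 ± 0.17 (adjusted p = 0.0468). Both calls were lost without wild type replicate 0 or 2 or cog1-2D replicate 1 or 2 (adjusted p = 0.0501 to 0.145). GGP1 (AT4G30530), a peptidase gene that acts on the glutathione conjugates, did not pass (log2 fold change -0.15 ± 0.08).

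The aliphatic side-chain genes split within a single cluster. FMOGS-OX2, FMOGS-OX3 and FMOGS-OX4 lie side by side on chromosome 1, and with FMOGS-OX5 they encode monooxygenases that oxidise the sulfur of the side chain. FMOGS-OX2 (AT1G62540) had 21.9, 17.8 and 21.1 CPM in wild type and 3.09, 3.06 and 3.26 CPM in cog1-2D. This was the largest fall among the members, 6.44-fold, with a log2 fold change of -2.69 ± 0.13 (edgeR adjusted p = 1.01e-06). The mutant libraries barely differed but held only 33, 32 and 36 fragments of it, against 252, 187 and 224 in wild type. FMOGS-OX3 (AT1G62560) had 102, 75.7 and 83.2 CPM against 63.7, 53.0 and 35.5 CPM, without overlap but with a wide spread in the mutant, and fell by 0.78 ± 0.19 (adjusted p = 0.0108). FMOGS-OX4 (AT1G62570), 5885 bases further on, ran from 53.1 to 70.1 CPM and from 48.8 to 64.1 CPM and did not pass (log2 fold change -0.07 ± 0.13). The coding sequences of FMOGS-OX2 and FMOGS-OX3 are 85.0% identical, with a longest shared stretch of 49 bases, and those of FMOGS-OX2 and FMOGS-OX4 79.5%.

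FMOGS-OX5 (AT1G12140) had 81.1, 83.5 and 79.8 CPM in wild type and 85.5, 88.0 and 90.0 CPM in cog1-2D. The groups did not overlap, yet the difference was small and did not pass (log2 fold change 0.11 ± 0.05, edgeR adjusted p = 0.131). It overlaps AT1G04933, a non-coding gene on the same strand, by 955 bases, so some of its fragments are uncertain. AT1G12150, a protein-coding gene on the opposite strand, overlaps it by 1066 bases and was at 0 fragments. Whether reads of that gene were counted for FMOGS-OX5 was not tested. On the FPKM scale FMOGS-OX5 was the highest of the 4 in both genotypes, and its share of their sum was 41.2 ± 3.6% in wild type and 54.0 ± 2.6% in cog1-2D. The share of FMOGS-OX2 was 7.81 ± 0.61% and 1.503 ± 0.06% (SD, n = 3).

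Among the indolic side-chain genes, CYP81F2 and CYP81F1 fell, and CYP81F3 and CYP81F4 did not pass. These cytochrome P450 enzymes hydroxylate the indole ring, and CYP81F2 is known for the products used against pathogens and aphids. CYP81F2 (AT5G57220) had 36.3, 42.2 and 29.9 CPM in wild type and 18.1, 14.0 and 8.41 CPM in cog1-2D, without overlap. Its log2 fold change was -1.42 ± 0.23 (edgeR adjusted p = 0.00125). CYP81F1 (AT4G37430) had 18.3, 16.0 and 15.3 CPM against 6.27, 7.06 and 8.23 CPM, and fell by 1.2 ± 0.13 (adjusted p = 0.000121). CYP81F4 (AT4G37410), in the same cluster on chromosome 4 and 4189 bases away, had 304, 318 and 226 CPM against 254, 252 and 336 CPM. The groups overlapped widely, with a log2 fold change of -0.01 ± 0.14. CYP81F3 (AT4G37400) was low in every library, at 4.49 to 6.74 CPM. Genes on the opposite strand overlap CYP81F1 by 1820 bases (AT4G37432, non-coding) and CYP81F4 by 2140 bases (AT4G37409, protein-coding). Both were at 0 fragments, and whether their reads were counted for CYP81F1 and CYP81F4 was not tested. By FPKM, CYP81F4 took 83.2 ± 0.85% of the sum of the 4 genes in wild type and 91.5 ± 2.2% in cog1-2D, without overlap, while the sum overlapped between genotypes (219 ± 37 and 198 ± 30 FPKM).

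The members varied more between libraries of a genotype than most genes did. The median range of log2 CPM over 3 libraries was 0.30 for the members in wild type and 0.39 in cog1-2D, against 0.21 and 0.18 over all tested genes. In the mutant, replicate 2 was the lowest library for 21 of the 33 members, against 35.8% of all tested genes. In wild type, replicate 0 was the highest for 20 of 33, against 36.9%. Replicate 2 was the lowest mutant library for MYB29, MAM1, CYP79F1, FMOGS-OX3, CYP81F2, APK1, APK2 and BAT5, and not for MAM3, CYP79B2 or FMOGS-OX2. The same replicate is the library with CRU3 fragments described above, whose part here was not tested. Without it, 10 members fell and 2 rose. Over the 6 fits that each left out a single library, 10 to 17 members fell and 1 to 3 rose.

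**Figure D4:**
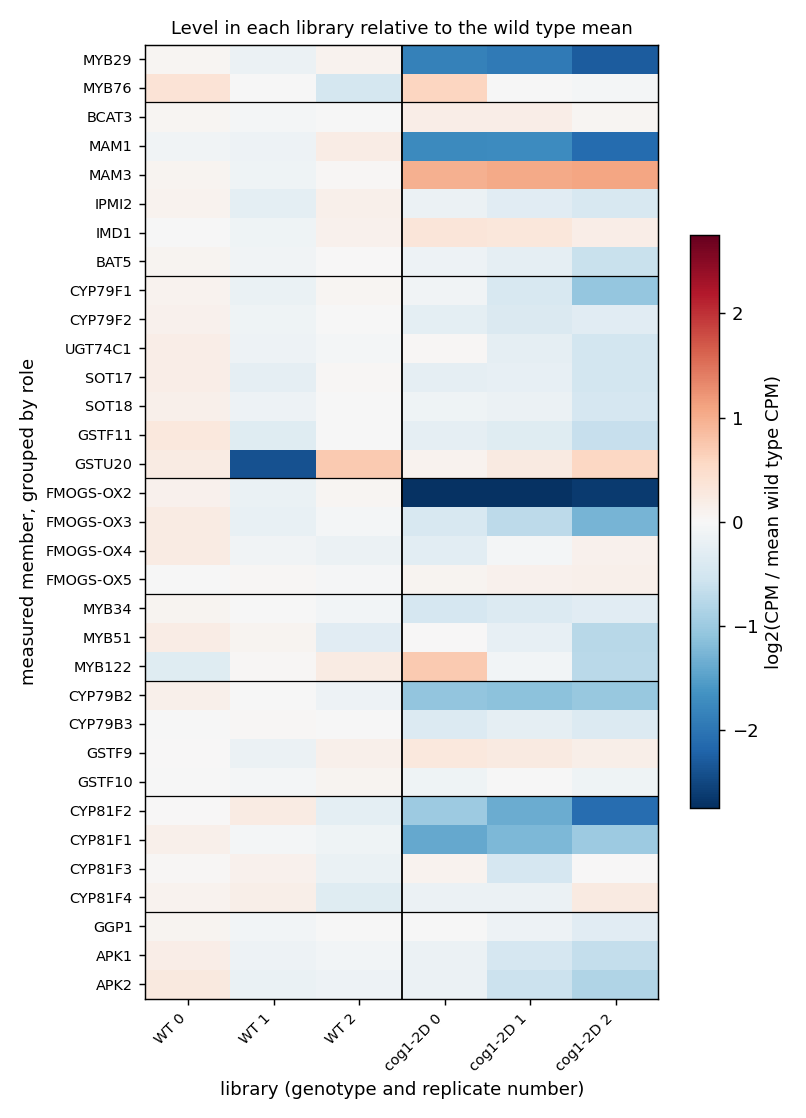
Level of each measured member (rows, grouped by role) in each library (columns), as log2 of its CPM over the wild type mean, with red above and blue below it. MYB29, MAM1 and FMOGS-OX2 are blue and MAM3 red in all 3 mutant libraries, while CYP79F1 and APK2 are palest in replicate 0 of the 3 mutant libraries.

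The authors' deposited table of significant genes lists 19 of the measured members, 17 lower and 2 higher in cog1-2D. Of all genes tested here, 29.6% are in the authors' deposited table, 16.7% as lower and 13.0% as higher in cog1-2D. It holds 15 of the 16 members called with edgeR, the exception being GSTF9. It also holds 4 members that edgeR did not call, namely IPMI2, CYP79F1, SOT17 and GSTF11. For CYP79F1 the authors' deposited table gives a log2 fold change of -0.41 and a q-value of 0.000662, beside the edgeR adjusted p of 0.0858 above. For the larger changes the 2 sources were close, as for FMOGS-OX2, where the authors' deposited table gives -2.64 and a q-value of 0.000349.

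Other genes of the pathway were listed from general knowledge of it. Of 31 such genes, 11 were measured, all on the plus strand, of which 2 rose, 4 fell and 5 did not pass, against 16.3% higher and 20.0% lower over all tested genes. FMOGS-OX7 (AT1G12160), a related monooxygenase gene close to FMOGS-OX5 on chromosome 1, fell from 12.0, 14.3 and 11.4 CPM to 5.34, 3.06 and 5.88 CPM, a log2 fold change of -1.39 ± 0.21 (edgeR adjusted p = 0.000915). APK4 (AT5G67520), a further kinase gene for the sulfate donor, rose from 6.51, 7.03 and 7.06 CPM to 15.0, 13.1 and 12.1 CPM (0.96 ± 0.12, adjusted p = 0.000308). It went the opposite way to APK1 and APK2. UMAMIT30 and UMAMIT31, which encode exporters of glucosinolates, fell by 0.29 ± 0.05 and 0.54 ± 0.09, and UMAMIT29, their neighbour, did not pass (0.11 ± 0.09). IMD2, a dehydrogenase gene related to IMD1, rose by 0.26 ± 0.05, and the isomerase subunit gene IPMI-SSU1 fell by 0.15 ± 0.05 (adjusted p = 0.0473). With a library left out, 3 of these genes fell instead of 4, except without wild type replicate 1, where 4 did. The bHLH partner gene MYC3 did not pass (-0.10 ± 0.06). MYC2, MYC4 and OBP2, a Dof-type regulator of the pathway, were unmeasured. MYC5, a further bHLH partner gene on the plus strand, was under the threshold too, with 54 fragments in all. It had 17, 18 and 15 fragments in wild type and 3, 1 and 0 in cog1-2D.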

How the data were processed

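Read handling by the authors used Trimmomatic 0.36, HISAT2 2.1.0 and the Cufflinks 2.2.1 suite with Cuffdiff on TAIR10, per the submitters' processing notes; the sources used here give no order of steps and no strand setting. The library kit marks strand, per the labels' protocols. Per the file headers, the deposited table lists for each gene in each library an expected count of fragments, not scaled, and an FPKM. The authors' deposited comparison gives mean FPKM per genotype, a log2 fold change and a q-value adjusted from a p-value for 3124 genes, per the file headers. Of the table's columns, 2 of scaled fragments were not used.

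Expected counts were rounded and compared with edgeR 4.0.16 (R 4.3.3; filterByExpr, TMM, quasi-likelihood F-test, genotype as the only term) over 10347 genes, with Benjamini-Hochberg adjustment at 0.05. CPM are edgeR counts per 1e6 fragments of library size after TMM scaling; the SE is the log2 fold change divided by the square root of F. Alternatives used DESeq2 1.42.0 and limma 3.58.1. The steps were tested on simulated data. Strand, positions and sequences are from the RefSeq TAIR10.1 genome and annotation, in which 32225 table genes had a locus tag. Coding identity is the share of equal bases at aligned positions in a global alignment (Biopython 1.88).

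The members and lists were chosen with earlier results of these data known. Every measured member is named; of the other pathway genes, up to 6 called ones with the largest changes are named. MYC3, UMAMIT29 and the unmeasured MYC2, MYC4, MYC5 and OBP2 were named outside that rule, after their values were seen. The upstream sequence of 1 further member is not reported here.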

Additional observations from a re-analysis of the deposited data

How the results depend on the processing

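Of the 13 members that fell, 9 were called lower under every one of the 15 alternatives: FMOGS-OX2, MYB29, MAM1, CYP81F2, CYP81F1, CYP79B2, CYP79B3, MYB34 and CYP79F2. Of the 3 that rose, this held for MAM3. With a library left out, 1 to 3 members rose (1 without cog1-2D replicate 1) and 10 to 17 fell. Limma on log2(FPKM + 1) with no filter on low values left 9 lower and 2 higher, and additionally lost FMOGS-OX3 (adjusted p = 0.0593). Signs reversed only in genes that did not pass with all libraries, and only when a library was left out. Over these 6 fits the log2 fold change ran from -0.038 to 0.43 for MYB76, -0.36 to 0.38 for MYB122, -0.16 to 0.85 for GSTU20, -0.17 to 0.063 for FMOGS-OX4, -0.20 to 0.061 for CYP81F3 and -0.16 to 0.082 for CYP81F4. The cause was not tested. Over all tested genes, replicate numbers did not pair the libraries: deviations of same-numbered libraries correlated at -0.01, -0.02 and 0.11. Pairing among the members alone was not tested. With a replicate block 19 members fell and 3 rose, with MYB51, IPMI2, CYP79F1, UGT74C1, SOT17 and GSTF11 called as well; over all genes the block gave 1863 higher and 2230 lower. With no low-count filter 19 members also fell. Few fragments limit MYB122 (80), GSTU20 (147), MYB76 (323) and CYP81F3 (389), and GSTU20 was the only minus-strand member with at least 60.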
